A study of Mus musculus with 3 samples.

Results

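Short stretches of neighbouring array probes in which the 5hmC signal changed from high to low were examined in wild-type mouse embryonic stem (ES) cells. A stretch was a run of 5 to 7 probes with consecutive numbers. It was a member if at least 1 of its probes lay above percentile 70 and at least 1 lay below percentile 30 of all probes on the 5hmC array. There were 774 such runs among 4843 runs of 5 to 7 probes (16.0%), and 26979 runs of any length, single probes included, in the whole table. The members held 4533 probes, of which 1503 lay above percentile 70 and 1210 below percentile 30.

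The data came from 3 Agilent 2-colour arrays with 1 array per group. The groups were 5hmC (DNA immunoprecipitated for 5hmC), 5mC (DNA captured with an MBD reagent) and a further 5hmC immunoprecipitation whose title carries the word IVT, which the labels do not explain and which is called the IVT array here. All 3 groups were wild-type ES cells with no treatment given, and each array set the precipitate, in Cy5, against the cells' genomic DNA, in Cy3. The ES cell line is not named in the labels, a DNA array offers no check of cell identity here, and each value is an average over the cells of a culture. No group had a replicate, so no p-value was computed, and the runs are sites within 3 hybridisations and not replicates of a condition.

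5-Methylcytosine (5mC) is written onto CpG dinucleotides by the DNA methyltransferases and is usually sparse in CpG islands, the CpG-dense stretches at many promoters. TET enzymes oxidise 5mC to 5-hydroxymethylcytosine (5hmC), so 5hmC can only form where 5mC was first laid down. ES cells express TET enzymes strongly, and 5hmC in these cells is known from promoters of intermediate CpG density, from gene bodies and enhancers and from the margins of CpG islands. MBD reagents are used to capture methylated CpG, and antibodies against 5hmC to capture the oxidised form. A boundary in 5hmC may therefore coincide with the edge of the methylated DNA itself or lie inside DNA that is methylated on both sides, and the 5mC array was read at each boundary for that reason.

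The table names probes only by number. Genome positions and gene annotation of the probes were not used here, so no member is assigned to a gene, exon, promoter or CpG island, no sequence is shown, and the distance between neighbouring probes in bases is not known. Percentiles within each array were used as the scale, because the log base and the centring of the deposited values are not known. The median deposited value was 0.02 on the 5hmC array, 0.24 on the 5mC array and -0.53 on the IVT array. Percentiles 30 and 70 of the 5hmC array corresponded to deposited values of -0.66 and 0.68. A high value is taken as more precipitated DNA, which rests on the channel order in the labels. The membership rule is symmetric, so turning the sign of all arrays would exchange the high and low sides and leave the comparisons of place and direction as given.

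The boundary inside each run was placed where a single split gave the largest sum of squares between its sides on the 5hmC percentiles. The side with the higher 5hmC mean is called the high side. The step on any array is the mean percentile of the high side minus that of the low side, in percentile points, so that a positive step on another array runs with 5hmC.

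The 5hmC values chose the members and are given as a description only. The mean 5hmC percentile had a median over members of 71.0 on the high side and 29.7 on the low side. In deposited values these medians were 0.76 and -0.68. The 5hmC step had a median of 38.7 points, with a range over members of 12.5 to 86.6. The other 4069 runs, measured the same way, had a median 5hmC step of 19.8 points. The largest change between neighbouring probes made up a median of 75.1% of a member's whole 5hmC range, and in 169 members (21.8%) the whole range was crossed between neighbouring probes. This change was taken anywhere in the run and in either direction. It was not computed for the other runs, and in so few probes it can be large in any order. How abrupt the boundaries are is therefore not read from it. Many boundaries rested on few probes. Only 1 probe lay above percentile 70 in 389 members, only 1 lay below percentile 30 in 527, and 202 members (26.1%) had 1 of each. At least 2 probes beyond each limit were found in 60 members (7.75%). The highest probe lay within 2 points above percentile 70 in 64 members, and the lowest lay within 2 points below percentile 30 in 118. Just outside the rule, 49 runs had a probe below 30 and a highest probe within 2 points of the upper limit, and 113 had a probe above 70 and a lowest probe within 2 points of the lower limit. The 173 members just inside a limit had a median 5hmC step of 34.0 points and the 162 runs just outside 33.7 points. Their median 5mC steps were 20.2 points inside and 22.6 outside, and their median IVT steps 11.9 and 14.0 points.

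The members were sorted by the order of their probes beyond the limits, without regard to the probes between percentiles 30 and 70. The high probes came before the low probes in 296 members (38.2%) and after them in 328 (42.4%). Low probes were flanked by high probes in 86 members (11.1%), a dip, and high probes were flanked by low probes in 58 (7.49%), an island of 5hmC. The remaining 6 alternated more often. Members with 1 probe beyond each limit can only have a single change by this count, and their middle probes may still go up and down. The split left at least 2 probes on each side in 484 members, a single probe on the high side in 121 and a single probe on the low side in 169.

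At the 5hmC boundary the 5mC signal changed in the same direction in most members. The 5mC step had a median of 20.2 points (quartiles 4.18 and 36.6), against 13.2 points in the other runs. The mean 5mC percentile had a median of 61.7 on the high side and 41.5 on the low side. The step ran with 5hmC in 626 of 774 members (80.9%), where 73.4% of all 4843 runs did so and 72.0% of the other runs. A step of at least 20 points with 5hmC was found in 390 members (50.4%), where 40.7% of all runs had one and 38.9% of the other runs. A step of at least 20 points against 5hmC was found in 29 members (3.75%), with 6.94% among all runs and 7.54% among the other runs. In the remaining 355 members (45.9%) the 5mC sides differed by less than 20 points. The size of 20 points stands in for a test that single arrays do not allow.

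On the IVT array the steps were smaller, and the share in the direction of 5hmC was near that of all runs. The IVT step had a median of 11.9 points (quartiles -3.65 and 29.3), against 7.53 points in the other runs. The mean IVT percentile had a median of 59.3 on the high side and 46.3 on the low side. The step ran with 5hmC in 528 members (68.2%), which lies near the 66.9% of all runs. A step of at least 20 points with 5hmC was found in 291 members (37.6%), where 31.8% of all runs and 30.7% of the other runs had one. A step of that size against 5hmC was found in 86 members (11.1%), where 9.73% of all runs had one. In the remaining 397 members (51.3%) the IVT sides differed by less than 20 points.

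**Figure D1:**
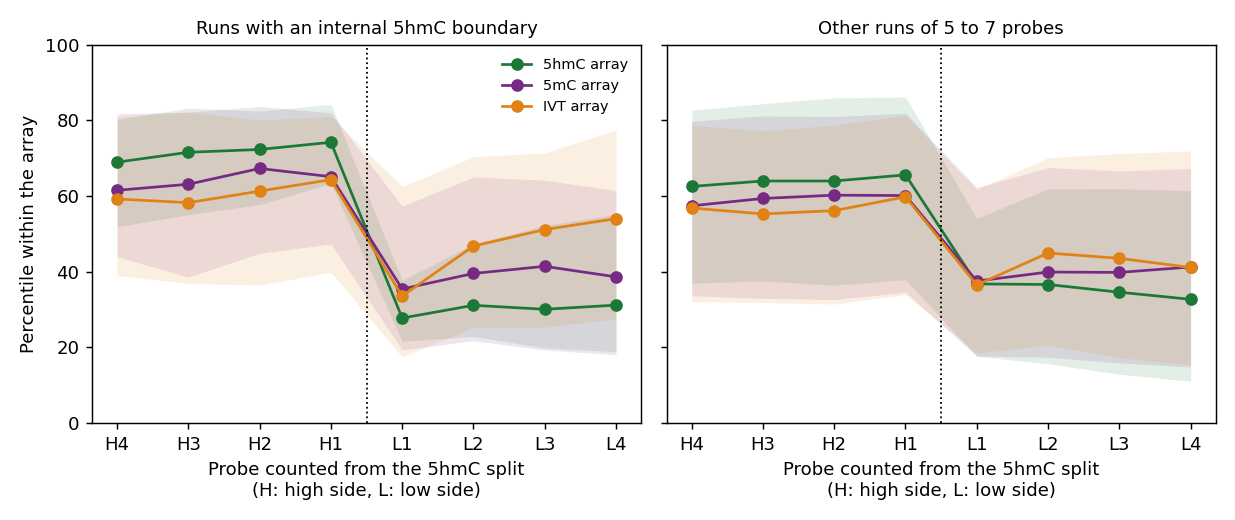
Median percentile on each array (y axis) at the probes counted from the 5hmC split (x axis; H1 is the first probe on the high side, L1 the first on the low side), with shaded quartile ranges over runs, for the 774 members on the left and the 4069 other runs on the right. In members 5hmC has a median of 74.2 at H1 and 27.8 at L1, 5mC 65.1 and 35.4, and the IVT array 64.3 and 33.6.

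The profile by probe showed how the median on each array changed along the run. Next to the split the median 5hmC percentile was 74.2 on the high side and 27.8 on the low side. At the same probes 5mC had medians of 65.1 and 35.4, and the IVT array had 64.3 and 33.6. The change between these neighbouring probes had a median of 24.2 points for 5mC and 19.9 points for the IVT array. The mean change between the other neighbours of a run, counted in the same direction, had medians of -0.86 points for 5mC and -2.81 points for the IVT array. When all members were averaged, both arrays thus dropped between the same probes as 5hmC. Rises and falls cancel in the mean over the other neighbours, so this average does not place the largest drop of a single member. The other runs showed smaller changes at their own splits, with medians of 15.2 points for 5mC and 11.4 points for the IVT array.

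Away from the boundary the arrays parted on the low side. The members with at least 3 probes on the low side, 390 in number, had IVT medians of 28.0, 43.1 and 51.2 at the successive probes counted away from the split. The median IVT signal was thus lowest next to the boundary and lay near the middle of its array at L3, the last of these places. In the same members 5mC had medians of 35.6, 38.4 and 41.4, and 5hmC had 30.4, 34.6 and 30.1. The 1887 other runs with at least 3 low-side probes had IVT medians of 30.6, 40.6 and 43.6 at these places, so the recovery was also present there and smaller. On the high side of the 512 members with at least 3 probes there, IVT medians were 66.5, 61.2 and 58.3, while 5mC had 64.8, 68.5 and 63.1 and 5hmC stayed between 71.1 and 71.6.

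**Figure D2:**
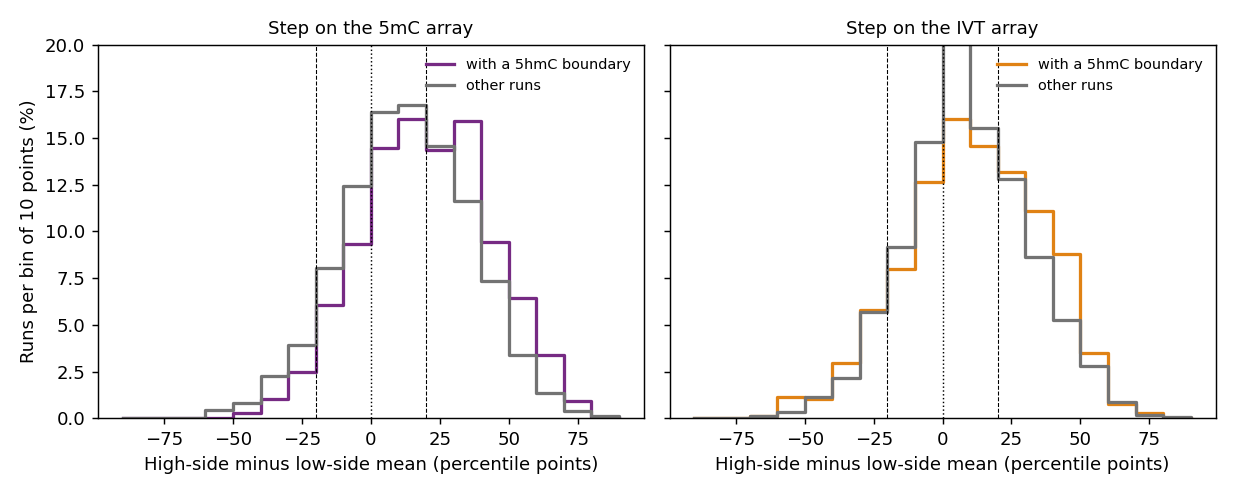
Distribution of the step at the 5hmC split on the 5mC array (left) and on the IVT array (right), as the share of runs per bin of 10 percentile points, for members in colour and for the other 4069 runs in grey. Dashed lines mark 20 points either way. The members' 5mC steps have a median of 20.2 points and their IVT steps 11.9 points, and both distributions reach below 0.

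Single regions were far less regular than the average. Within the sides of a member the 5mC values scattered by a median SD of 0.74 over probes, in deposited units, while the median 5mC step was 0.65. On the IVT array the SD was 0.83 and the median step 0.43. On the 5hmC array, where the step was selected, the SD was 0.56 and the median step 1.42. The size of a member's own step did not exceed its own SD within the sides in 386 members (49.9%) for 5mC and 434 (56.1%) for the IVT array, against 53.9% and 53.4% of the other runs. For 5hmC this was so in 56 members (7.24%). All high-side probes exceeded all low-side probes on the 5mC array in 249 members (32.2%), where 28.6% of all runs had such a separation. On the IVT array this held in 175 members (22.6%), below the 25.5% of all runs. A single probe on a side makes this separation easier to reach. In the 484 members with at least 2 probes on each side the 5mC sides were separate in 119 (24.6%) and the IVT sides in 77 (15.9%). The same shares were not computed for the other runs, so these have no background beside them. The comparisons with all runs above were not matched for single-probe sides, and nothing about the members is read from them.

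Whether each array by itself would place its boundary between the same probes was examined by splitting every run anew on its own values. The split found on the 5mC array alone coincided with the 5hmC split in 248 members (32.0%), where 30% of all runs and 29.7% of the other runs did. It lay 1 probe away in 238 members (30.7%) and farther in 288 (37.2%). For the IVT array the split coincided in 228 members (29.5%), where 28% of all runs did, lay 1 probe away in 247 (31.9%) and farther in 299 (38.6%). Both shares lie close to those of the other runs, which have 5hmC steps too but miss the limits of the rule, so the place of the best split is not a result about the members. The count takes in splits at which the array changes opposite to 5hmC. A run offers only 4 to 6 places for a split. In members of 5, 6 and 7 probes the 5mC split coincided in 34.1%, 30.4% and 31.0%, against 32.4%, 28.2% and 24.6% of the other runs of those lengths. Both arrays placed their split with 5hmC in 82 members (10.6%), against 358 other runs (8.80%), and neither did in 380 members (49.1%).

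**Figure D3:**
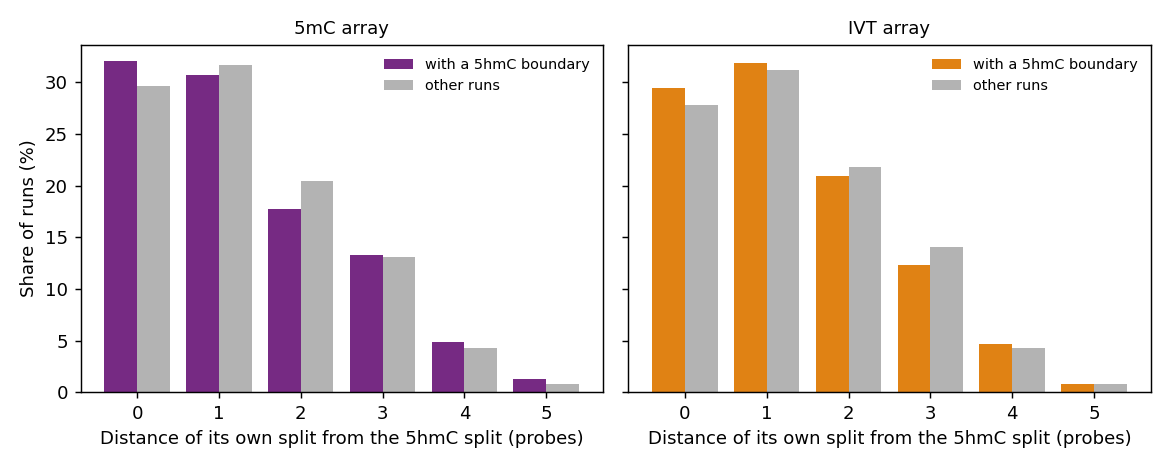
Share of runs (y axis, %) by the number of probes between the array's own best split and the 5hmC split (x axis), for the 5mC array (left) and the IVT array (right), members in colour and the other 4069 runs in grey. The same split was found in 32.0% of members on the 5mC array and in 29.5% on the IVT array, and the grey bars lie close to the coloured ones.

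The coincidence was also counted by the size of the array's step at the 5hmC split. In the 390 members with a 5mC step of at least 20 points, the 5mC split lay at the 5hmC split in 220 (56.4%), against 910 of 1581 (57.6%) in the other runs with such a step. In the 291 members with an IVT step of that size it did in 160 (55.0%), against 712 of 1249 (57.0%) in the other runs. In the members whose sides differed by less than 20 points, it coincided in 19 of 355 (5.35%) for 5mC and 34 of 397 (8.56%) for the IVT array. In the members with a step of at least 20 points against 5hmC, it coincided in 9 of 29 (31.0%) for 5mC. For the IVT array it did in 34 of 86 (39.5%). A coincident split in these members is a change opposite to 5hmC. Much of this link between step size and coincidence is built in. The step was measured only at the 5hmC split, and a large step there favours that split as the best one. A run with a large change at another place can fall under 20 points. The classes therefore do not show whether an array had a sizeable step elsewhere in the run. By single changes between neighbours, the largest 5mC drop of a member in the direction of 5hmC lay at the 5hmC split in 323 members (41.7%, with 38.6% among all runs). The largest IVT drop lay there in 332 (42.9%, with 39.1% among all runs).

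Larger 5hmC steps went with larger 5mC steps. Members were placed in 4 bins of near-equal size by their 5hmC step. In the bin with the smallest 5hmC steps, up to 31.0 points, 5mC had a median step of 16.6 points, and 79 of 194 members (40.7%) had a step of at least 20 points. The next bins had medians of 15.9 and 21.0 points. In the bin with the largest 5hmC steps, from 47.4 points, the median 5mC step was 29.6 points and 126 of 194 (64.9%) had at least 20. The IVT steps followed less, with medians of 8.30, 9.04, 15.4 and 14.6 points over the 4 bins in rising order of the 5hmC step. Across the 774 members the 5hmC step had a Pearson r of 0.245 (Spearman rho 0.218) with the 5mC step and 0.057 (rho 0.069) with the IVT step. These are descriptions across sites that share their arrays and the genomic DNA channel.

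At like 5hmC steps the members did not exceed the other runs in 5mC steps. Runs with a 5hmC step between 30 and 40 points had a 5mC step of at least 20 points in 112 of 249 members (45.0%), against 323 of 596 other runs (54.2%). Their median 5mC steps were 16.5 and 22.4 points. Between 40 and 50 points, 121 of 220 members (55.0%) and 124 of 198 other runs (62.6%) had such a step. Between 20 and 30 points, 51 of 134 members (38.1%) and 529 of 1180 other runs (44.8%) did. For the IVT array the shares between 30 and 40 points were 33.7% of members and 43.0% of other runs. The higher 5mC share that members had over all sizes was not seen within these bins of like 5hmC step.

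The steps on the other arrays were also read by shape. In members with the high probes first, 5mC had a median step of 22.4 points and the IVT array 13.1. With the low probes first these were 22.1 and 11.7 points, so the order along the probe numbers made little difference. At dips, where low 5hmC probes are flanked by high ones, 5mC had a median step of 16.1 points and the IVT array 12.1, with a 5hmC step of 28.0. At islands of 5hmC flanked by low probes, 5mC had a median step of 16.4 points, close to that at dips, while the IVT median was 0.77 points. An IVT step of at least 20 points with 5hmC was found in 13 of 58 islands (22.4%) and in 35 of 86 dips (40.7%), where 31.8% of all runs had one. The place of the IVT split went the other way. It coincided with the 5hmC split in 21 islands (36.2%) and 20 dips (23.3%), where 28% of all runs did. No island had a 5mC step of 20 points against 5hmC, and 4 dips did. A single split describes a dip or an island poorly, and the difference between shapes was not tested.

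The mean 5mC percentiles of the sides were set against percentile 50 of the 5mC array. This is a middle rank and not a limit between methylated and unmethylated DNA. The 5mC means lay on opposite sides of percentile 50, high with 5hmC, in 390 members (50.4%), against 1248 other runs (30.7%). Members also had larger 5hmC steps than the other runs. At 5hmC steps between 20 and 30 points the shares were 35.8% of members and 37.7% of other runs. Between 30 and 40 points they were 47.0% and 47.1%, and between 40 and 50 points 56.4% and 53.5%. Most of the difference was thus not seen at like 5hmC steps. Both sides lay above percentile 50 of 5mC in 208 members (26.9%) and 32.7% of the other runs, and both below it in 135 members (17.4%) and 29.7% of the other runs. At a dip both sides were above percentile 50 in 44 of 86 members and both below in 7. At an island both were below in 29 of 58 and both above in 9. By definition a dip has high 5hmC probes on both sides of its low ones, and an island has low ones on both sides. Over all probes 5hmC and 5mC had a Pearson r of 0.620. The shape rule thus favours this contrast in 5mC level, and nothing is read from it. On the IVT array the sides lay across percentile 50 in the direction of 5hmC in 271 members (35.0%) and 28.0% of the other runs. In the same bins of 5hmC step, in rising order, this held in 29.9%, 31.7% and 39.5% of members. The other runs had 33.4%, 36.4% and 40.4%. Both IVT sides lay above in 272 members (35.1%) and 35.3% of the other runs, and both below in 154 members (19.9%) and 27.7% of the other runs.

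The members were divided by their 5mC step at the limits of 20 points either way. The steps ran on across the upper limit without a gap. The bin from 10 to 20 points held 16.0% of members and the next bin 14.3%. The groups are thus cuts through a continuous range and not separate kinds of boundary. In the 390 members where 5mC stepped by at least 20 points with 5hmC, the median 5mC percentile was 69.6 on the high side and 29.0 on the low side. The 5hmC medians there were 71.9 and 28.8, and since both arrays entered the choice of these members, nothing is read from how alike the spans are. The IVT medians of these members were 60.0 and 43.1. In the 355 members with 5mC sides within 20 points, 5mC had medians of 56.0 and 51.7 although 5hmC had 70.2 and 31.1. The single members spread around these medians, with quartiles of 46.1 and 65.3 on the high side and 41.9 and 61.3 on the low side, and with both sides above percentile 50 in 157 and both below in 92. The IVT array had 58.8 and 50.3 in these members. In the 29 members with the opposite 5mC step, 5mC had medians of 46.8 on the 5hmC-high side and 78.6 on the 5hmC-low side. The IVT step of these members had a median of -4.30 points. Of these 29 members 20 had a single probe on a side of the split, so that 1 probe sets the mean.

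The IVT array moved more often with 5hmC where 5mC did so too. An IVT step of at least 20 points with 5hmC was found in 171 of the 390 members with such a 5mC step (43.8%), in 115 of the 355 with 5mC sides within 20 points (32.4%) and in 5 of the 29 with the opposite 5mC step. In the other runs the shares were 35.9%, 27.3% and 28.3%. All 3 arrays changed together by at least 20 points on 5mC and IVT in 171 members (22.1%), against 567 other runs (13.9%). The sides differed by less than 20 points, in either direction, on both 5mC and IVT in 196 members (25.3%), against 1382 other runs (34.0%). By direction alone, both ran with 5hmC in 446 members (57.6%), 5mC only in 180, IVT only in 82 and neither in 66 (8.53%). In the other runs both did in 1990 (48.9%), 5mC only in 940, IVT only in 720 and neither in 419 (10.3%). The other runs had smaller 5hmC steps, and these joint shares were not compared at like 5hmC steps. Within the bins of like 5hmC step given above, each array alone reached 20 points with 5hmC less often in members than in other runs. The joint shares are therefore not read as a trait of the members. All 3 ratios have genomic DNA of the cells in their Cy3 channel, and its part in the shared direction was not tested.

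**Figure D4:**
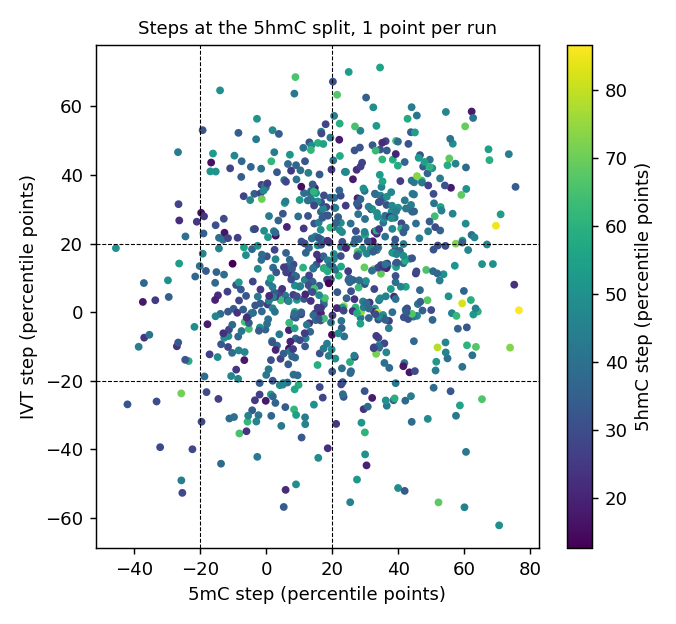
Step on the 5mC array (x axis) against step on the IVT array (y axis) at the 5hmC split, in percentile points, with 1 point per member and colour for the 5hmC step. Dashed lines mark 20 points either way. Of 774 members, 171 lie in the upper right field and 7 in the lower left.

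Particular regions show these cases probe by probe. The largest 5hmC step, 86.6 points, was found in a run of 6 probes in which only the first was high. Its 5hmC percentiles were 93.6, then 4.7, 5.1, 4.1, 11.3 and 9.9 along the probe numbers. The 5mC percentiles followed closely, at 86.2, then 7, 12, 11.5, 8 and 9.3. The IVT array stayed at the bottom of its range throughout, with percentiles between 1.4 and 3.9. The IVT step of this run was 0.53 points, and in deposited units its sides, -3.94 and -4.12, differed by less than the SD within the sides of 0.33.

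The largest step in the other order, 85.2 points, was again set by a single end probe. The first 5 probes had 5hmC percentiles between 0.4 and 11.6, and the sixth had 91.5. The 5mC percentile of the sixth probe was 88.7, with 3 to 41.4 at the first 5. The IVT percentile was 31.3 at the sixth probe and 4.9 to 7.9 before it, so the IVT array changed between the same probes and reached a lower rank.

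The run of 7 probes from A_68_P27340133 and the run of 5 from A_68_P27841684 were those with the largest joint step of 5mC and IVT with 5hmC, measured as the smaller of both steps. In the run from A_68_P27841684 the first 4 probes had 5hmC percentiles of 63.6, 69.4, 80.9 and 53.6 and the last had 26.2. Its 5mC percentiles were 86.3, 77.1, 98.1, 58.3 and 17.2, and its IVT percentiles 63.8, 96.8, 83.5, 80.8 and 24.6. All 3 arrays dropped at the last probe. The deposited 5mC means were 1.31 on the high side and -0.73 on the low side, with an SD within the sides of 0.86.

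The run from A_68_P27340133 had the smaller 5hmC step, 17.9 points. Its 5hmC percentiles were 51.2, 18.2, 71.9, 48.1, 20.7, 66.3 and 53.5, a series with several changes. Its last 2 probes had 5mC percentiles of 94.8 and 95.1 and IVT percentiles of 98.3 and 98, where the first 5 had 5mC between 6.5 and 68.6 and IVT between 20.6 and 64.6. The run was chosen by its steps on the 5mC and IVT arrays, so nothing is read from its clearer boundary there.

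The largest opposite 5mC steps were in the runs of 6 probes from A_68_P32290624 and A_68_P22674475, with -45.6 and -42.0 points. Both were set by the last probe. In the run from A_68_P32290624 this probe had a 5hmC percentile of 23.3, a 5mC percentile of 97.5 and an IVT percentile of 45.8. The 5 probes before it had 5hmC between 55.4 and 86.3 and 5mC anywhere between 14.8 and 97.6. In the run from A_68_P22674475 the last probe had 24.5 for 5hmC, 94.7 for 5mC and 64 for IVT. Its first probe had the same 5mC percentile, 94.7, at a 5hmC percentile of 52. High 5mC in these runs was thus not confined to the low-5hmC side. The 5mC values before the last probe had SDs of 1.19 and 1.16 in deposited units, so single probes moved the sides.

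**Figure D5:**
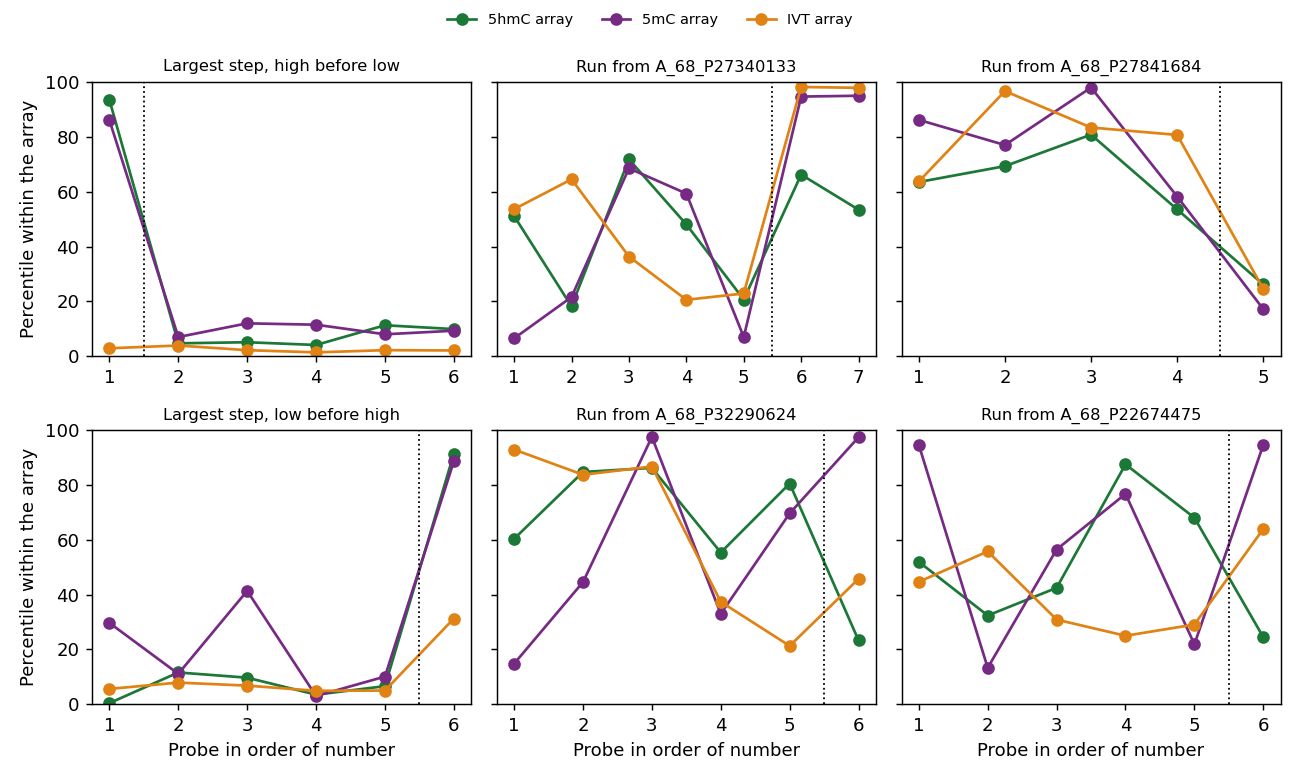
Percentile within each array (y axis) by probe in order of number (x axis) in 6 members, with the 5hmC split as a dotted line. Left, the members with the largest 5hmC step in each order; upper middle and right, the members with the largest joint step of 5mC and IVT, taken as the smaller of both; lower middle and right, those with the largest opposite 5mC step.

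Other members showed the unselected arrays parting from each other. In a run of 5 probes 5hmC fell after the first probe, with percentiles of 86.3, then 28.9, 20.6, 18.9 and 14.5. The IVT percentiles fell at the same place, with 94.1 at the first probe and 9.7 to 38.2 after it, while 5mC was low throughout, between 9.3 and 37.7. In a run of 6 probes with the opposite case, 5mC stepped by 70.6 points with 5hmC and the IVT array by -62.2 points. Its last probe had percentiles of 23.5 for 5hmC, 8.6 for 5mC and 91.6 for IVT. Of the 35 members with 5mC at least 20 points with 5hmC and IVT at least 20 points against it, this had the most negative IVT step. These examples were chosen by their steps after the values were seen.

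Steps under 5 percentile points on both unselected arrays were found in 18 members (2.33%) and in 161 other runs (3.96%). The 5hmC steps of these 18 members ranged between 21.8 and 64.0 points. The member with the largest had 4 probes at 5hmC percentiles between 10.1 and 18.1 and the last at 78.9. That last probe had a 5mC percentile of 53.1, within the 22.8 to 69.9 of the first 4, and the IVT percentiles of all 5 probes lay between 0.7 and 5.1. In deposited units, which spread the bottom of the array more widely, its IVT values were -3.15 on the high side and -4.33 on the low side with an SD within the sides of 0.32, and the IVT split was the 5hmC split.

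The probes just outside the runs had no part in the rule. A number gap of a single missing probe followed the high-side end of 260 members (33.6%) and the low-side end of 97 (12.5%). At the high-side end 419 members (54.1%) had more than 10 numbers missing, against 644 (83.2%) at the low-side end. The low side of a 5hmC boundary thus more often met the end of a stretch of numbers. The same held in the other runs, with more than 10 missing numbers at 61.8% of high-side and 80.1% of low-side ends. Beyond the gap of a single missing probe, the next probe had a median 5hmC percentile of 63.3 on the high side (260 probes) and 48.3 on the low side (97 probes). The 5mC medians there were 60.1 and 49.0, and the IVT medians 54.9 and 49.0. The 5hmC probes beyond the low side spread widely, with quartiles of 25.6 and 79.2, and those beyond the high side had quartiles of 44.3 and 80.4. Only 33 members had such probes at both ends, and in 18 of them the probe beyond the high side had the higher 5hmC.

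The members were spread over the whole probe order. Each of the 88 full blocks of 1000 probes held between 3 and 16 of them, with a median of 8, and the share of runs that were members ranged from 5.66% to 29.6%. In the last 3 blocks, where the IVT values are lower than elsewhere, there were 38 members. Their IVT medians were 43.3 on the high side and 32.5 on the low side, against 59.9 and 47.5 in the 736 members of the earlier blocks. The IVT step itself was alike, with medians of 12.7 and 11.6 points. The 5mC step had medians of 16.4 points in the last 3 blocks and 20.6 points before.

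Within a member the ranks of its probes ran together on the arrays. The correlation of 5hmC and 5mC percentiles over the 5 to 7 probes of a run had a median of 0.591 in members and 0.440 in the other runs. It was below 0 in 107 members (13.8%) and in 22.7% of the other runs. For 5hmC and the IVT array the medians were 0.414 in members and 0.383 in the other runs, with 190 members (24.5%) and 25.7% of the other runs below 0. The rule demands a wide 5hmC range, whose part in the higher correlation of members was not tested.

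The 60 members with at least 2 probes beyond each limit have the best supported 5hmC boundaries by number of probes. Their median 5hmC step was 49.0 points. The 5mC step had a median of 25.9 points. It ran with 5hmC in 50 of them (83.3%, with 73.4% among all runs) and reached 20 points in 36 (60.0%, with 40.7%). The IVT step had a median of 7.45 points. It ran with 5hmC in 41 (68.3%, with 66.9% among all runs) and reached 20 points in 16 (26.7%, with 31.8%). Other runs with a 5hmC step between 40 and 50 points reached 20 points in 62.6% for 5mC and 46.5% for IVT. In the 202 members with a single probe beyond each limit the median 5mC step was 16.9 points and the median IVT step 10.7 points.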

How the data were processed

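The authors deposited a table of 88736 probes whose values are signed scores, written to 4 decimals, made from Cy5 (precipitate) and Cy3 (genomic DNA) signals of Agilent arrays per the labels. The scores look like log ratios. Their software, normalization, log base, centring and genome build were not stated in the sources used. The 88734 probes with values on all 3 arrays were ranked to percentiles within each array and joined into runs of consecutive numbers. Signal intensities were not used here, so depth is unknown, and the small number of arrays is what limits precision. Splits left at least 1 probe per side. The procedure was tested on simulated runs whose steps were larger, relative to their scatter, than the members' median steps on any array. That test does not show how well splits are placed at the scatter of these data. The members and lists were chosen with earlier results of these data known. Separation of sides, neighbour changes, bins of like 5hmC step, flanking probes, gaps and correlations were added after seeing the data. By rule, at most 2 members with the largest joint step (the smaller of 5mC and IVT) and 2 with opposite 5mC steps are named, by first probe. The gene lists set for the case of annotated probes were not used. Alternatives are in the closing section. Python 3.11.15, numpy 2.4.6, pandas 2.3.3 and scipy 1.17.1 were used.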

Additional observations from a re-analysis of the deposited data

How the results depend on the processing

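Of 52 alternative values from 11 settings, 26 stayed within the exact 95% binomial interval of the main share or within 1.5 times the main count. The interval treats runs as independent, which sites on the same arrays are not, and serves only as a yardstick of size. With the boundary on the 5hmC array no share of steps in its direction was below 66.7%. The values outside these limits follow, with the cause not tested unless stated. With limits of 80 and 20, a stricter choice by construction, members numbered 167, 5mC steps ran with 5hmC in 85.6% and reached 20 points in 58.7%, and the 5mC split coincided in 37.7%. With at least 2 probes beyond each limit members numbered 60, 5mC steps reached 20 points in 60.0%, IVT steps in 26.7%, and the 5mC split coincided in 26.7%. With the boundary chosen on the IVT array members numbered 2229, 5mC steps ran with that boundary in 64.8% and reached 20 points in 35.4%, the 5mC split coincided in 24.1%, and the 5hmC array, read in place of IVT, reached 20 points in 29.9%. With at least 2 probes per side, which leaves fewer places for a split, 20 points were reached by 44.8% for 5mC and 33.5% for IVT, and splits coincided in 47.5% and 44.7%. With a step of 0.5 robust SD in place of 20 points the shares were 55.9% and 45.2%, and with 30 points 36.0% and 24.4%. Splits counted as shared within 1 probe coincided in 62.8% and 61.4%. With the split at the largest change between neighbours 5mC ran with 5hmC in 77.8%. Without members that hold a probe near the 5mC mode, 5mC steps reached 20 points in 56.9% and its split coincided in 36.1%. No paired analysis was possible because there was a single array per group, and no replicate could be left out. Signal over background is unknown.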
